A study of Homo sapiens with 42 samples.

Results

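The 9 genes FOS, FOSB, FOSL1, FOSL2, JUN, JUNB, JUND, BATF3 and MAFF were described across all 12 groups of an RNA sequencing study of senescent human fibroblasts. They are FOS and JUN genes and related members of the basic leucine zipper (bZIP) class. They were chosen by name from the 28266 gene symbols of the count table, with earlier results of these data known. Poly(A) RNA of 42 libraries was counted. IMR90 ER:RAS cells, IMR90 lung fibroblasts that carry a fusion of the oestrogen receptor and oncogenic HRAS from a retroviral vector (pLNC-ER:RAS), received 4-hydroxytamoxifen (4OHT, 100 nM), which activates the fusion and leads to oncogene-induced senescence (OIS), or the solvent DMSO. IMR90 cells without the fusion received bleomycin, a drug that breaks DNA, at 50 µg/ml for 24 h, or DMSO. Every group was cultured for 7 days and then given doxycycline at 1 µg/ml for 72 h, which switched on a control shRNA, COPB2 shRNA 1 or COPB2 shRNA 2 from an inducible vector (LT3GEPIR). COPB2 encodes a subunit of the coat of COPI vesicles. RNA was taken at day 10, from 3 libraries in each of the 6 ER:RAS groups and 4 in each of the 6 IMR90 groups. No IMR90 cells without the fusion received 4OHT, so an effect of 4OHT itself and of activated RAS cannot be told apart, and doxycycline was present in every group.

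AP-1 is a dimer of bZIP proteins that binds DNA at short palindromic sites. JUN proteins pair with each other or with FOS proteins, whereas FOS proteins need a JUN partner, and the pairing sets how strongly the dimer drives transcription. FOS, FOSB and JUN are textbook immediate-early genes that respond within minutes to growth factors and stress through kinases such as ERK and JNK, while the FOSL1 protein is stabilised by sustained ERK signalling. In senescent fibroblasts AP-1 is known as a regulator of secreted factors such as interleukins and metalloproteinases.

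Totals ran from 13148194 to 23597310 counts per library. COPB2 read 267 to 620 CPM (counts scaled to library size with TMM factors) under the control shRNA in 14 libraries and 33.9 to 122 CPM under a COPB2 shRNA in 28. HRAS and ESR1 counts separated the ER:RAS from the IMR90 libraries without overlap. The 9 fibroblast markers summed to 8164 to 27797 CPM, and in OIS with the control shRNA COL1A1, COL1A2, COL3A1, PDGFRA, PDGFRB, DCN and LUM fell and VIM rose. After bleomycin the same 7 fell and none rose, and 5 of the 9 fell without replicate 4. The 10 markers of epithelial, endothelial and blood cells summed to 2.32 to 14.8 CPM, with 9.70 to 14.8 CPM after 4OHT and 2.32 to 5.78 CPM in DMSO-treated ER:RAS cells. KRT5 and SFTPC had at most 3 counts in any library, and PECAM1, CDH5, PTPRC, CDH1 and CD3E were at 0 in at least 1 library. Of the 5 that could be tested in OIS 3 rose, after bleomycin 3 of 6 rose and 1 fell, and their part in the results was not tested. The libraries were bulk RNA, so fewer cells with a transcript and less of it per cell cannot be told apart. Replicate 4 of the bleomycin-treated groups was looked at on its own after its values were seen. Of 14783 genes tested, 7.7% were highest in replicate 4 in all 3 shRNA arms, against 1.29% in the DMSO-treated groups. The members concerned are given below with and without replicate 4. The same count was not made for replicates 1 to 3. The chi-square per degree of freedom between bleomycin libraries is higher where 2 libraries are less alike. With COPB2 shRNA 1 it was highest for the pairs with replicate 4, at 107 to 168. With COPB2 shRNA 2 it was 262 between replicates 2 and 3, and 87.2 between replicates 3 and 4. Replicate 1 of the 4OHT group with the control shRNA had the lowest TMM factor of the 42 libraries (0.611). Within its group it was highest for JUN, JUNB, JUND, BATF3 and MAFF, and not for FOS, FOSB, FOSL1 and FOSL2. A legend of the study calls the replicates of its knockdown gene set plots independent experiments. It gives n = 3 after bleomycin too, where the labels hold 4 replicates per group. The labels do not say whether each library came from a separate culture. The p-values measure the spread between these libraries.

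The 250 bases upstream of the start in each promoter entry (RefSeq, GRCh38.p14, read on the strand of the gene) were taken for 7 members. FOS, FOSB, FOSL2, JUN, JUNB, JUND and MAFF had an entry, and were searched on both strands for sites known to act in this family. The MAFF window, chr22:38202770-38203019, lies inside the annotated gene, which begins at 38201994, and not upstream of it. TGACGT, the core bound by CREB and ATF proteins, was found in FOS, FOSB, FOSL2 and JUND, or 4 of 7 windows against 7.1% of all 35116 promoter windows. Since the sites were picked as known in this family, the shares are a description and not a test. TGACATCA, a site of JUN and ATF2 dimers, was found in JUN, and in 2.37% of all windows. The AP-1 site TGAGTCA and the CArG box of serum response factor were in none of the 7 windows (4.2% and 1.16% of all), which says only that these letters are not in this stretch. The 5 windows with a match are shown because they hold a site of the CREB, ATF and JUN class in genes that rose (FOS, FOSB, JUN), fell (FOSL2) or did not pass the test (JUND) in OIS. Capitals mark the match. TGACGT lies 64 bases before the start in FOS, 60 in FOSB and 66 in FOSL2, and TGACATCA 67 in JUN. In JUND the letters are read at 200, 198 and 87 bases, where the first pair are both strands of a single palindrome.
FOS, chr14:75278578-75278827, plus strand: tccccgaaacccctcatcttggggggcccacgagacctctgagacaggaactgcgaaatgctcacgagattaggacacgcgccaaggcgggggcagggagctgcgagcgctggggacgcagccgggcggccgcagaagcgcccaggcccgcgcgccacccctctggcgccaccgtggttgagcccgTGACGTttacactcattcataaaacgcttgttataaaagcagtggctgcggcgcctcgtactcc
FOSB, chr19:45467746-45467995, plus strand: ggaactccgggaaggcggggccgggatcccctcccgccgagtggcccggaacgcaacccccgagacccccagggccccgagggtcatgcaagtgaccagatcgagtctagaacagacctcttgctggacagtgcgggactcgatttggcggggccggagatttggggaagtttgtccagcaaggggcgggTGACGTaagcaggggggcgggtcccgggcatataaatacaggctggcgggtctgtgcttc
FOSL2, chr2:28392608-28392857, plus strand: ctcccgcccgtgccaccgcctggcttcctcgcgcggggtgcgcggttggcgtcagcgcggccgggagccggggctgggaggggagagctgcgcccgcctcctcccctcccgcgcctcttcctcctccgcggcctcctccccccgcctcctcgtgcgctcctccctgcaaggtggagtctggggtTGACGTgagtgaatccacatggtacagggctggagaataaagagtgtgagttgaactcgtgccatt
JUN, chr1:58784048-58784297, minus strand: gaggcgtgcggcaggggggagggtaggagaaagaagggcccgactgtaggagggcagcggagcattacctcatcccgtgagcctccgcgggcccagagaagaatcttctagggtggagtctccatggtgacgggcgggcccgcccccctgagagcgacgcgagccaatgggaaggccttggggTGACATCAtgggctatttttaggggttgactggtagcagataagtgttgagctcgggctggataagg
JUND, chr19:18281623-18281872, minus strand: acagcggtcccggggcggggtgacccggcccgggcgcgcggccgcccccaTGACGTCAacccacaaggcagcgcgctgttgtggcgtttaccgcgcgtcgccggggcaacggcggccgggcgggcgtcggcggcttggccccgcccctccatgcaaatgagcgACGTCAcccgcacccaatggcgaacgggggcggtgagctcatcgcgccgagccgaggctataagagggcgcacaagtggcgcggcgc

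To compare levels between genes, CPM was divided by the length of the Ensembl canonical transcript in kb. In DMSO-treated ER:RAS cells with the control shRNA, JUND was highest at 131 ± 21.9 CPM per kb (SD, n = 3), above JUNB without overlap of libraries. JUNB, JUN, MAFF, FOSL1 and FOSL2 followed, and each overlapped its neighbour in that order, from 57.5 ± 12.6 for JUNB to 17.2 ± 4.64 for FOSL2. BATF3 (5.48 ± 1.38), FOS (1.36 ± 0.127) and FOSB (0.189 ± 0.122 CPM per kb) stood lowest and apart from each other. In cells undergoing OIS, MAFF led at 276 ± 129 CPM per kb, followed by JUNB at 172 ± 56.2, JUND at 123 ± 61.5, JUN at 105 ± 19.9 and FOSL1 at 84.4 ± 8.32, each overlapping the next. FOSL2 had dropped below BATF3, to 8.11 ± 0.463 CPM per kb, although these overlapped. In DMSO-treated IMR90 cells JUND was again first at 98.1 ± 23.5 CPM per kb (SD, n = 4) and FOSB last at 0.183 ± 0.0833. After bleomycin, JUND stayed first at 87.3 ± 15.9, MAFF and FOSL1 followed at 56.8 ± 5.52 and 55.3 ± 16.1 CPM per kb with overlap, and FOSB stayed last at 0.519 ± 0.113.

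**Figure D1:**
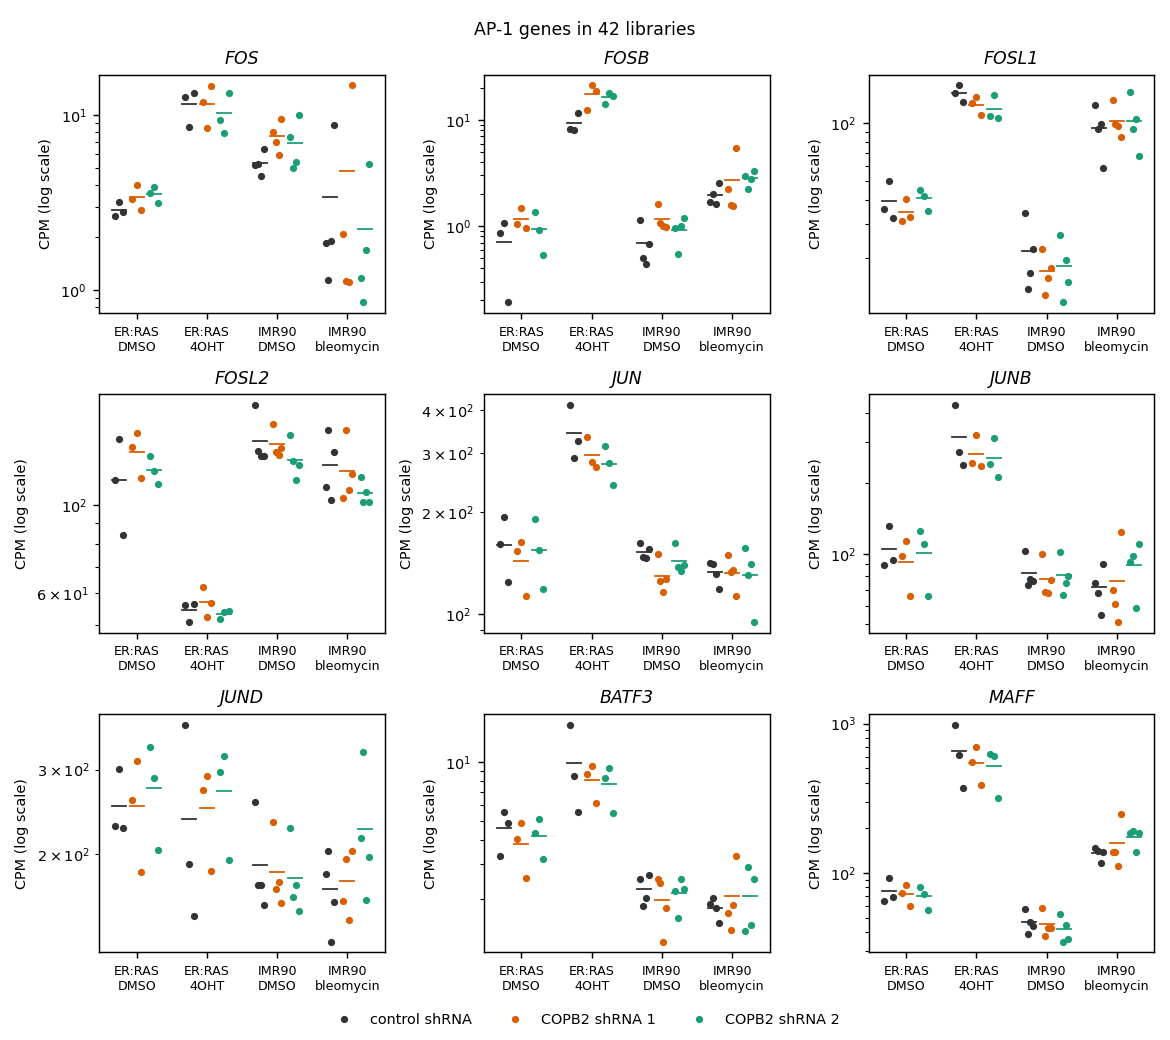
Expression of the 9 AP-1 genes in CPM (log axis, scaled to each gene) in 42 libraries, with cell state on the horizontal axis, a point per library and a bar at the mean of each shRNA group. FOSB, FOSL1 and MAFF are higher in both senescent states than in their DMSO controls in the group means, FOSL2 is low in 4OHT-treated ER:RAS cells alone, and FOS in bleomycin-treated IMR90 cells holds 3 high points, 1 per shRNA.

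The first comparison was of OIS with DMSO in ER:RAS cells carrying the control shRNA. FOS, FOSB, FOSL1, JUN, JUNB, BATF3 and MAFF rose and FOSL2 fell, so 8 of 9 members passed an adjusted p-value of 0.05 in edgeR's quasi-likelihood test, against 35.7% of all genes tested (15.5% higher and 20.2% lower). JUND, the remaining member, had values of 229, 301 and 227 CPM with DMSO and 372, 191 and 149 CPM with 4OHT.

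FOSB, which encodes a FOS protein also known for its truncated and long-lived isoform, had the largest change. Its libraries read 0.866, 1.08 and 0.192 CPM with DMSO and 8.21, 8.06 and 11.5 CPM with 4OHT. All 3 senescent libraries lay far above the controls, which held few FOSB counts. The log2 fold change was 3.64 ± 0.48 (SE), or 12.5-fold (edgeR, adjusted p = 2.44e-05). FOS, the founding member of the family, read 2.65, 3.17 and 2.79 CPM with DMSO and 12.6, 8.53 and 13.4 CPM with 4OHT. The groups did not overlap, and FOS was 3.77-fold higher in OIS (log2 1.91 ± 0.30 (SE), edgeR, adjusted p = 0.000134).

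FOSL1 (FRA1) lacks the strong activation domain of FOS and is the FOS protein linked to sustained RAS and ERK signalling. Its values were 35.8, 50.1 and 32 CPM with DMSO and 144, 158 and 129 CPM with 4OHT, with every senescent library well above every control. It rose 3.43-fold (log2 1.78 ± 0.18 (SE), edgeR, adjusted p = 1.59e-06). FOSL2 (FRA2), the other FOS-related antigen, moved the other way. It read 116, 147 and 84.3 CPM with DMSO and 56.1, 50.9 and 56.4 CPM with 4OHT. The senescent libraries were close together and all below the controls, which spread more widely. FOSL2 was 2.25-fold lower in OIS (log2 -1.17 ± 0.18 (SE), edgeR, adjusted p = 8.86e-05).

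Among the partners, JUN, the main activating subunit, read 161, 194 and 125 CPM with DMSO and 415, 289 and 324 CPM with 4OHT. It rose 2.01-fold without overlap (log2 1.01 ± 0.20 (SE), edgeR, adjusted p = 0.00108). JUNB, a weaker activator that can oppose JUN, read 89.9, 132 and 94 CPM with DMSO and 432, 271 and 240.3 CPM with 4OHT. It rose 2.78-fold without overlap, with replicate 1 highest (log2 1.48 ± 0.26 (SE), edgeR, adjusted p = 0.000375). JUND, the JUN gene expressed at a steady level in resting cells, had a log2 fold change of -0.20 ± 0.29 (SE) with overlapping groups (edgeR, adjusted p = 0.651), and its interval of -0.77 to 0.37 (95%) does not reach a change of 1 in either direction.

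BATF3, a small bZIP protein without an activation domain that pairs with JUN and is best known from dendritic cells, read 3.31, 5.58 and 4.86 CPM with DMSO and 15.4, 8.46 and 5.58 CPM with 4OHT. The lowest senescent library and the highest control were level at 5.58 CPM. The log2 fold change was 0.98 ± 0.34 (SE) (edgeR, adjusted p = 0.0354), and the call was lost when these 6 libraries were fitted alone (log2 1.01, edgeR, adjusted p = 0.154). It was also lost without replicate 1 of the 4OHT group (log2 0.58), replicate 1 of the DMSO group (0.85) or replicate 3 of the DMSO group (1.12), with adjusted p-values of 0.211, 0.141 and 0.0581 in edgeR. MAFF, a small MAF protein without an activation domain that pairs with CNC proteins such as NFE2L2, read 64.2, 91.9 and 68.7 CPM with DMSO and 978, 613 and 372 CPM with 4OHT. It rose 8.08-fold without overlap (log2 3.01 ± 0.32 (SE), edgeR, adjusted p = 3.3e-06), while the senescent libraries themselves spread from 372 to 978 CPM.

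**Figure D2:**
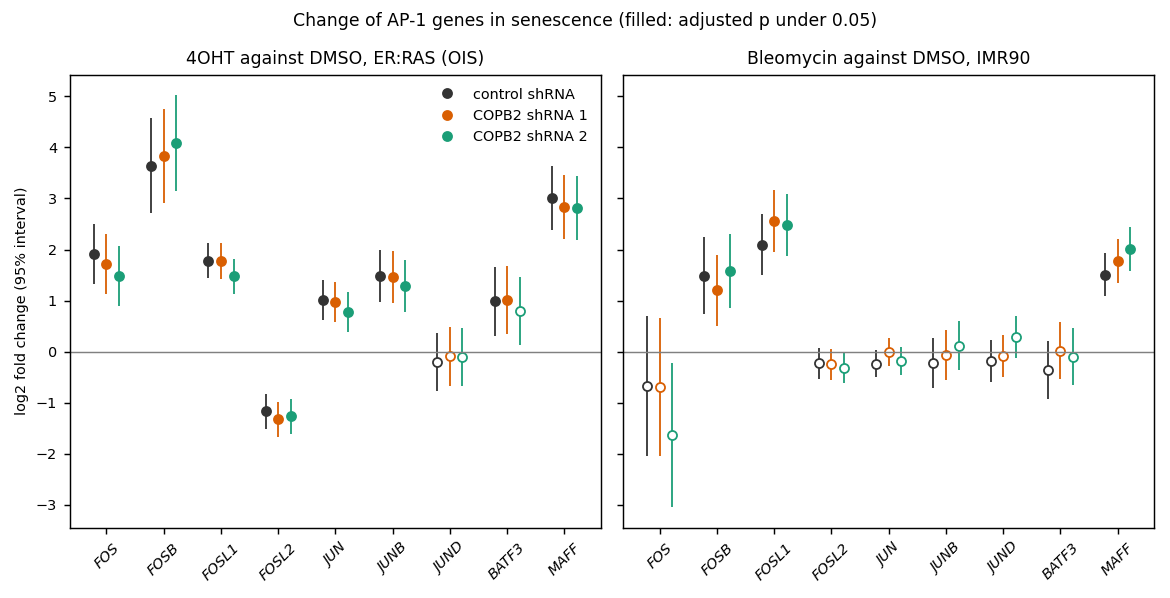
Log2 fold change (points) with 95% interval (bars) of the 9 AP-1 genes against DMSO, in ER:RAS cells with 4OHT (left) and IMR90 cells with bleomycin (right), for each shRNA. Filled points passed an adjusted p of 0.05 in edgeR. The left panel shows 7 genes above 0, with BATF3 open for COPB2 shRNA 2, and FOSL2 below 0. The right panel has filled points for FOSB, FOSL1 and MAFF.

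The same contrast was measured in other libraries of this line, those that carried a COPB2 shRNA in both the 4OHT and the DMSO arm. With COPB2 shRNA 1, 7 members rose and FOSL2 fell, against 36.9% of all genes called (15.4% higher and 21.5% lower). BATF3 rose there by 1.01 ± 0.34 (SE) (edgeR, adjusted p = 0.03), and lost its call without replicate 1 (1.09) or 3 (0.84) of the DMSO group or replicate 1 (1.01) or 2 (0.95) of the 4OHT group. With COPB2 shRNA 2, 6 members rose and FOSL2 fell, again against 36.9% of all genes (14.9% higher and 22% lower), and BATF3 missed the threshold (log2 0.79 ± 0.34 (SE), edgeR, adjusted p = 0.0846). Same-numbered libraries of this arm varied together, and with the replicate number as a block BATF3 passed (log2 0.78, edgeR, adjusted p = 0.0285).

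The 8 called members kept their direction in all 3 arms. FOSB changed by 3.64, 3.83 and 4.08 on the log2 scale with the control shRNA, COPB2 shRNA 1 and COPB2 shRNA 2, in that order. FOSL1 changed by 1.78, 1.77 and 1.48, and FOSL2 by -1.17, -1.33 and -1.27. MAFF changed by 3.01, 2.83 and 2.81. For FOSB, FOS, FOSL1, FOSL2, JUN, JUNB and MAFF the libraries of the 4OHT and DMSO groups did not overlap in any arm. Of all genes tested, 38.5%, 46.5% and 46.2% had no overlap in these arms.

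Libraries of the FOS genes in the COPB2 shRNA arms are as follows. FOSL1 read 31, 40.2 and 32.6 CPM with DMSO and 128, 138 and 110.1 CPM with 4OHT under COPB2 shRNA 1, and 45.2, 42 and 34.8 CPM and 109, 141 and 107 CPM under COPB2 shRNA 2. FOSL2 read 140.2, 152 and 117 CPM with DMSO and 62.4, 52.2 and 56.6 CPM with 4OHT under COPB2 shRNA 1, and 132, 122 and 113 CPM and 51.8, 53.9 and 54.1 CPM under COPB2 shRNA 2. Every 4OHT library of FOSL2 was below 63 CPM, and every DMSO library of these arms was above 112 CPM.

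After bleomycin, 3 of the 9 members rose in IMR90 cells with the control shRNA, namely FOSB, FOSL1 and MAFF, and none fell. Of all genes tested, 31.2% were called in this contrast, 15.4% higher and 15.8% lower. FOSL1 had the largest change of the 9. It read 34, 13.8, 16.7 and 22.3 CPM with DMSO and 125, 93.1, 99.2 and 58.7 CPM with bleomycin, without overlap, and replicate 4 was the lowest treated library. FOSL1 was 4.27-fold higher (log2 2.09 ± 0.31 (SE), edgeR, adjusted p = 2.16e-05).

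MAFF read 56.8, 38.6, 46.9 and 44 CPM with DMSO and 146, 140.1, 116 and 137 CPM with bleomycin. The treated libraries lay close together and all above the controls, 2.85-fold in the fit (log2 1.51 ± 0.22 (SE), edgeR, adjusted p = 1.75e-05). FOSB was near the limit of detection in the controls, at 1.14, 0.505, 0.44 and 0.685 CPM, and reached 1.68, 2.01, 1.61 and 2.54 CPM with bleomycin. The groups did not overlap, and FOSB was 2.8-fold higher (log2 1.49 ± 0.39 (SE), edgeR, adjusted p = 0.0051).

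FOSL2 read 178, 136, 133 and 133 CPM with DMSO and 111, 154, 103 and 136 CPM with bleomycin. These groups overlapped and the log2 difference of -0.23 ± 0.15 (SE) did not pass the test (edgeR, adjusted p = 0.276), with a 95% interval of -0.53 to 0.07. JUN read 162, 148, 146 and 156 CPM with DMSO and 141, 141, 131 and 118 CPM with bleomycin. All treated JUN libraries were below all controls, as FOSB, FOSL1 and MAFF were above theirs, and 28% of all genes tested had no overlap. Yet the log2 difference of -0.23 ± 0.14 (SE) did not pass (edgeR, adjusted p = 0.221).

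The remaining members had overlapping groups. JUNB read 103, 73.5, 78.1 and 76.5 CPM with DMSO and 75.2, 67.7, 54.8 and 90.6 CPM with bleomycin. JUND read 256, 172, 172 and 157 CPM and 181, 202, 131 and 159 CPM, and BATF3 2.51, 1.83, 2.01 and 2.63 CPM and 1.87, 2.01, 1.78 and 1.5 CPM. JUNB (-0.22 ± 0.25 (SE)), JUND (-0.19 ± 0.21 (SE)) and BATF3 (-0.35 ± 0.29 (SE)) had log2 differences that did not pass either (edgeR, adjusted p = 0.541, 0.54 and 0.393).

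FOS showed the widest spread. With DMSO it read 5.21, 5.23, 4.5 and 6.37 CPM, and with bleomycin 1.87, 1.15, 1.9 and 8.71 CPM, where the highest value belonged to replicate 4. Under COPB2 shRNA 1 the DMSO libraries read 8.02, 7.02, 5.93 and 9.44 CPM and the bleomycin libraries 2.09, 1.13, 1.12 and 14.8 CPM. Under COPB2 shRNA 2 these were 7.49, 5.0, 5.41 and 9.93 CPM and 1.16, 0.855, 1.69 and 5.28 CPM.

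In all 3 arms replicates 1 to 3 with bleomycin lay below every DMSO library, and replicate 4 lay within or above the DMSO range. The log2 difference of FOS was -0.68 ± 0.70 (SE), -0.69 ± 0.69 (SE) and -1.64 ± 0.72 (SE) with the control shRNA, COPB2 shRNA 1 and COPB2 shRNA 2, and did not pass (edgeR, adjusted p = 0.516, 0.478 and 0.0739). Without replicate 4 of all IMR90 groups, a choice made after seeing the data, FOS fell by 1.59, 2.28 and 2.26 on the log2 scale (edgeR, adjusted p = 0.00127, 7.90e-05 and 8.08e-05).

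FOSB and JUNB were also highest in replicate 4 of the bleomycin libraries in all 3 arms, so FOS, FOSB and JUNB, 3 of 9 members, shared this order, against 7.7% of all genes tested. FOS was the only member with this order in the DMSO libraries too. FOSB with COPB2 shRNA 1 read 2.26, 1.59, 1.54 and 5.45 CPM after bleomycin, and the call there was lost without replicate 4 of that group (log2 0.59, edgeR, adjusted p = 0.134) and without replicate 4 of all IMR90 groups (log2 0.55, edgeR, adjusted p = 0.275). JUNB reached 90.6 to 124 CPM in the 3 libraries of replicate 4 and 51.1 to 98.2 CPM in the other 9. FOSL1 and JUN went the other way. FOSL1 was at 58.7 to 84.9 CPM in replicate 4 against 93.1 to 145 CPM in the others. JUN was at 94.9 to 118 CPM against 131 to 157 CPM. The share of all genes lower in replicate 4 in this way was not counted.

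Of 22 immediate-early genes, 9 were highest in replicate 4 in all 3 arms, beside 7.7% of all genes tested. NR4A1, NR4A2 and NR4A3, orphan nuclear receptors, and EGR1, EGR2 and EGR3, zinc finger factors, were among these. EGR1 was at 143 to 298 CPM in replicate 4 and 63.2 to 108 CPM in the others, and NR4A2 at 87.4 to 122 CPM and 7.49 to 29.7 CPM. BTG2, IER5 and KLF6 of the immediate-early list went the other way, each lower in replicate 4 than in every other bleomycin library. KLF6 was at 48.9 to 61.7 CPM in replicate 4 and 78.6 to 122 CPM in the others. As for FOSL1 and JUN, the share of all genes with this order was not counted. Of 24 AP-1 target genes tested, 13 were highest in replicate 4 in all arms, beside the same 7.7%. What lay behind these differences was not tested.

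**Figure D3:**
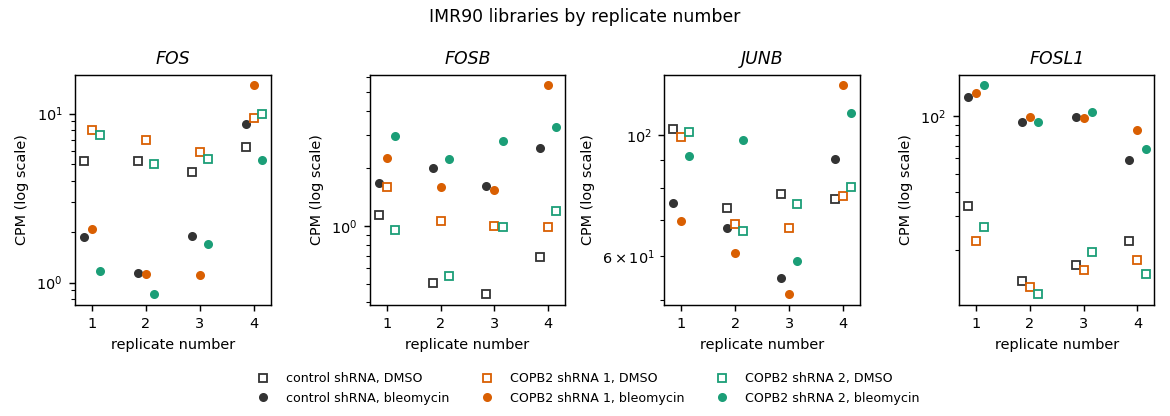
FOS, FOSB, JUNB and FOSL1 in CPM (log axis) in the 24 IMR90 libraries by replicate number. Open squares are DMSO, filled circles bleomycin, and colours the shRNAs. FOS after bleomycin is 0.855 to 2.09 CPM in replicates 1 to 3 and 5.28 to 14.8 CPM in replicate 4, whereas FOSL1 after bleomycin is lowest in replicate 4.

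With COPB2 shRNA 1, bleomycin raised FOSB, FOSL1 and MAFF and lowered no member, against 35.2% of all genes called (17.4% higher and 17.8% lower). With COPB2 shRNA 2 the same members were called, against 40% of all genes (21.7% higher and 18.3% lower). FOSL1 changed by 2.09, 2.56 and 2.48 on the log2 scale with the control shRNA, COPB2 shRNA 1 and COPB2 shRNA 2. MAFF changed by 1.51, 1.78 and 2.01, and FOSB by 1.49, 1.20 and 1.57. FOSL1 and MAFF had no overlap between bleomycin and DMSO libraries in any arm, where 35.4% and 30.8% of all genes had none with COPB2 shRNA 1 and 2.

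Because FOS proteins compete for JUN partners, each gene was also given as a share of its family, from CPM per kb. The FOS family (FOS, FOSB, FOSL1 and FOSL2) summed to 41.8 ± 10.3 CPM per kb with DMSO and to 100.4 ± 6.30 in OIS (SD, n = 3). In IMR90 cells it summed to 37.1 ± 8.45 with DMSO and 76.2 ± 13.2 after bleomycin (SD, n = 4). Transcript shares do not give protein shares, and they are a description without a test.

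FOSL1 made up 52.9%, 55.5% and 57.4% of the FOS family in the DMSO-treated ER:RAS libraries with the control shRNA, and 83.6%, 87.1% and 81% in OIS. FOSL2 made up 43.3%, 41.2% and 38.4% with DMSO and 8.28%, 7.12% and 8.95% in OIS. The mean share of FOSL1 thus went from 55.3% ± 2.25 to 83.9% ± 3.04 (SD, n = 3), and that of FOSL2 from 40.9% ± 2.49 to 8.12% ± 0.924. FOS went from 3.35% ± 0.627 to 5.52% ± 1.54, and FOSB from 0.424% ± 0.233 to 2.47% ± 0.682.

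In IMR90 cells FOSL2 was the main FOS transcript per kb before treatment, and FOSL1 after it. Which gene leads depended on the division by length, since without it FOSL2 led both before (84.2%) and after bleomycin (56% against 41.5% for FOSL1), and in DMSO-treated ER:RAS cells too (72.8%). Per kb, FOSL2 made up 53.8%, 65.4%, 62.1% and 54.9% with DMSO and 18.1%, 29.2%, 20.5% and 34% after bleomycin, where the highest treated value was replicate 4. FOSL1 made up 40.6%, 26.1%, 30.8% and 36.2% with DMSO and 80.5%, 69.4%, 77.7% and 57.9% after bleomycin. The mean share of FOSL1 was 33.4% ± 6.29 with DMSO and 71.4% ± 10.1 after bleomycin (SD, n = 4). FOS went from 7.03% ± 1.52 to 2.46% ± 3.01, a spread that again rested on replicate 4.

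Over all 3 shRNA arms FOSL1 held 44.5% to 57.4% of the family in 9 DMSO-treated and 76.1% to 87.1% in 9 4OHT-treated ER:RAS libraries. It held 24% to 40.6% in 12 DMSO-treated and 57.9% to 81.9% in 12 bleomycin-treated IMR90 libraries. FOSL2 held 38.4% to 51% and 7.12% to 9.95% in ER:RAS cells, and 53.8% to 67.1% and 16.4% to 34% in IMR90 cells. In both models the senescent and control libraries were separate for both genes. In ER:RAS cells the FOSL2 transcript itself fell, whereas in IMR90 cells its level did not pass the test while FOSL1 rose.

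The JUN family (JUN, JUNB and JUND) summed to 237 ± 43.7 CPM per kb with DMSO and 399.8 ± 136 in OIS (SD, n = 3), and to 190.3 ± 32.4 and 168 ± 20.8 in IMR90 cells without and with bleomycin (SD, n = 4). JUND held 55.2% ± 1.35 of it in DMSO-treated ER:RAS cells and 29.7% ± 4.83 in OIS. JUNB went from 24.2% ± 1.34 to 43.1% ± 0.923, and JUN from 20.7% ± 2.18 to 27.2% ± 4.76. In IMR90 cells JUND was at 51.2% ± 3.34 and 51.9% ± 3.63, JUNB at 23.8% ± 0.655 and 23.5% ± 4.13, and JUN at 25.1% ± 3.0 and 24.6% ± 3.24, with differences between means smaller than the spread of the libraries.

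**Figure D4:**
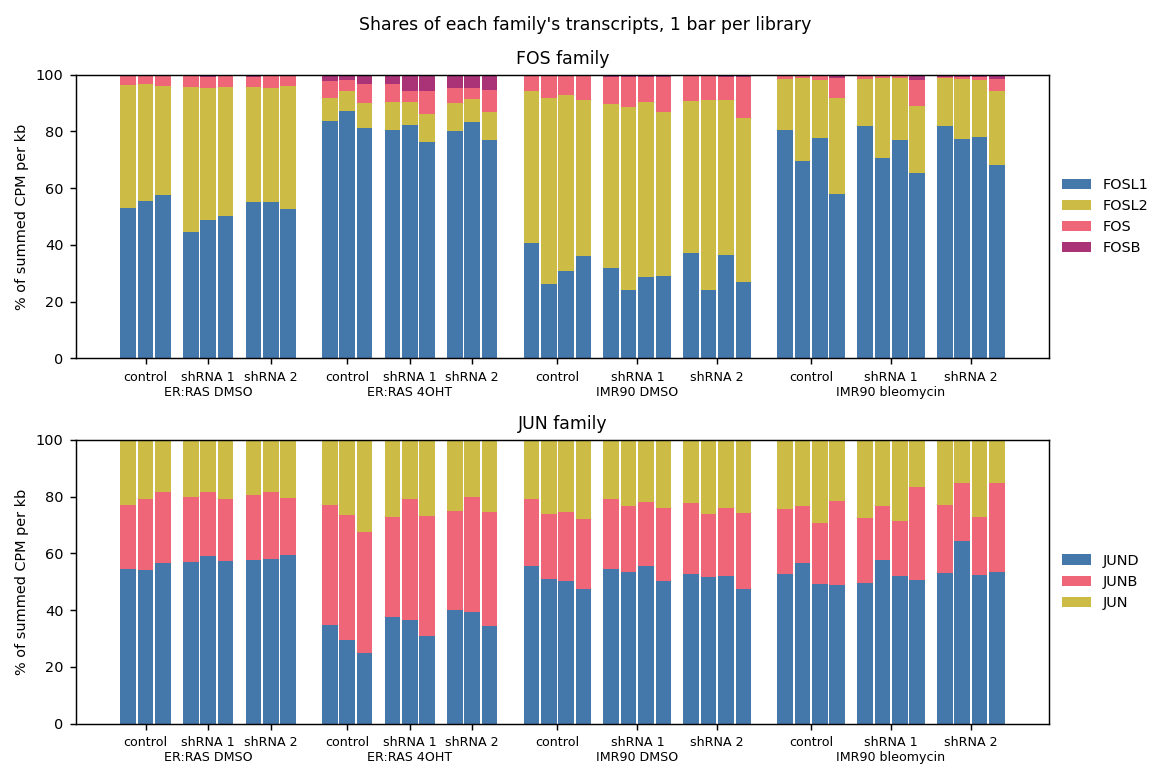
Share of each gene in the summed CPM per kb of the FOS family (top) and the JUN family (bottom), with 1 bar per library, grouped by cell state and shRNA. FOSL1 takes 76.1% to 87.1% of the FOS family in 4OHT-treated and 57.9% to 81.9% in bleomycin-treated libraries, more than in any DMSO library of the same line, while the JUN family changes its make-up in the 4OHT-treated libraries.

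Whether the response of a member differed between models was tested as the OIS response minus the bleomycin response with the control shRNA, in a fit of all 42 libraries. Model and cell line cannot be told apart in it. The response was larger in OIS for FOS, FOSB, JUN, JUNB, BATF3 and MAFF and lower for FOSL2, 7 of 9 members, against 20.3% of all genes tested (8.14% higher and 12.1% lower). JUNB differed by 1.78 ± 0.38 (SE) on the log2 scale (edgeR, adjusted p = 0.000865), JUN by 1.30 ± 0.25 (SE) (edgeR, adjusted p = 0.000183) and MAFF by 1.59 ± 0.39 (SE) (edgeR, adjusted p = 0.00273). FOSB differed by 2.21 ± 0.59 (SE) (edgeR, adjusted p = 0.00655) and FOSL2 by -0.88 ± 0.23 (SE) (edgeR, adjusted p = 0.00493).

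FOS differed by 2.65 ± 0.90 (SE) (edgeR, adjusted p = 0.0326), and lost its call without any of 9 single libraries, with log2 differences from 2.36 to 2.72 and edgeR adjusted p-values from 0.0502 to 0.0727. These were DMSO replicates 1, 2 and 3 and 4OHT replicates 1 and 3 of ER:RAS cells, bleomycin replicates 1, 2 and 3 and DMSO replicate 4 of IMR90 cells. Without bleomycin replicate 4 it was 3.70, and the difference without all replicate 4 libraries of IMR90 was 3.64 (edgeR, adjusted p = 1.17e-07). BATF3 differed by 1.42 ± 0.46 (SE) (edgeR, adjusted p = 0.026) and lost its call without replicate 1 of the 4OHT group (0.94), replicate 1 of the ER:RAS DMSO group (1.23), replicate 4 of the IMR90 DMSO group (1.33), replicate 4 of the bleomycin group (1.34) or all replicate 4 libraries of IMR90 (1.28). FOSL1 had a difference of -0.25 ± 0.39 (SE) (edgeR, adjusted p = 0.751), with a 95% interval of -1.01 to 0.52. JUND had 0.08 ± 0.38 (SE) (edgeR, adjusted p = 0.931).

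The effect of COPB2 knockdown on the members was tested against the control shRNA for both COPB2 shRNAs, state by state. Both shRNA contrasts of a state share the control libraries. No member passed the test in any of the 8 contrasts, 0 of 72 values, where over all genes 0.00676% to 0.224% were called. COPB2 itself passed in all 8. It was the only gene called in DMSO-treated cells of both lines and with COPB2 shRNA 1 after bleomycin. The absence of member calls therefore does not show that the members were unchanged. Before adjustment 1 of the 72 values had p under 0.05. DESeq2 and the other alternatives called no member either. In ER:RAS cells with DMSO, 0.00699% of genes were called with each shRNA, and with 4OHT 0.14% with COPB2 shRNA 1 and 0.224% with COPB2 shRNA 2. In IMR90 cells 0.00676% were called in 3 contrasts and 0.0744% with COPB2 shRNA 2 after bleomycin. The number of genes at an unadjusted p under 0.05 ran from 116 to 997.

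FOSB had positive log2 fold changes in all 8 contrasts, from 0.35 to 0.89. In OIS it read 8.21, 8.06 and 11.5 CPM with the control shRNA, 12.4, 21.2 and 18.6 CPM with COPB2 shRNA 1 and 14, 17.9 and 16.9 CPM with COPB2 shRNA 2. Every knockdown library exceeded every control library for FOSB, 1 of 9 members in either contrast, and 6.36% and 7.83% of all genes had no overlap with COPB2 shRNA 1 and 2. The log2 fold changes were 0.89 ± 0.41 (SE) and 0.79 ± 0.41 (SE), with unadjusted p = 0.0489 and 0.0756 and an adjusted p of 1 for both in edgeR.

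After bleomycin FOSB read 1.68, 2.01, 1.61 and 2.54 CPM with the control shRNA, 2.26, 1.59, 1.54 and 5.45 CPM with COPB2 shRNA 1 and 2.96, 2.23, 2.78 and 3.28 CPM with COPB2 shRNA 2. These sets overlapped. The log2 fold changes were 0.48 ± 0.35 (SE) and 0.54 ± 0.35 (SE), and the first turned to -0.15 without replicate 4 of that group. In DMSO-treated cells FOSB had log2 fold changes of 0.70 ± 0.46 (SE) and 0.35 ± 0.47 (SE) in ER:RAS and 0.77 ± 0.39 (SE) and 0.45 ± 0.40 (SE) in IMR90 cells, with levels of 0.192 to 1.60 CPM. The value for COPB2 shRNA 2 in ER:RAS cells turned to -0.09 without replicate 3 of the control group.

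The members other than FOS and FOSB had log2 fold changes from -0.36 to 0.42 in their 56 values, and the widest 95% intervals among these ended at -1.02 and 0.83. FOS ran from -0.57 to 0.52, with intervals from -1.98 to 1.89. JUN was below 0 in all 8 contrasts, from -0.31 to -0.000373, and passed in none. A change of FOS within these intervals was not detectable at this spread. FOSL1 read 107 to 141 CPM in OIS with either COPB2 shRNA and 129 to 158 CPM with the control. FOSL2 read 51.8 to 62.4 CPM and 50.9 to 56.4 CPM.

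Whether knockdown acted differently on senescent than on control cells was tested as an interaction, once per shRNA and line. No member passed, 0 of 36 values, with the lowest adjusted p at 1.00 in edgeR and no unadjusted p under 0.05. No gene at all was called in these 4 contrasts by edgeR, with 121 to 285 genes at an unadjusted p under 0.05. The log2 differences of the members ran from -0.96 to 0.50. The lowest belonged to FOS after bleomycin with COPB2 shRNA 2.

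**Figure D5:**
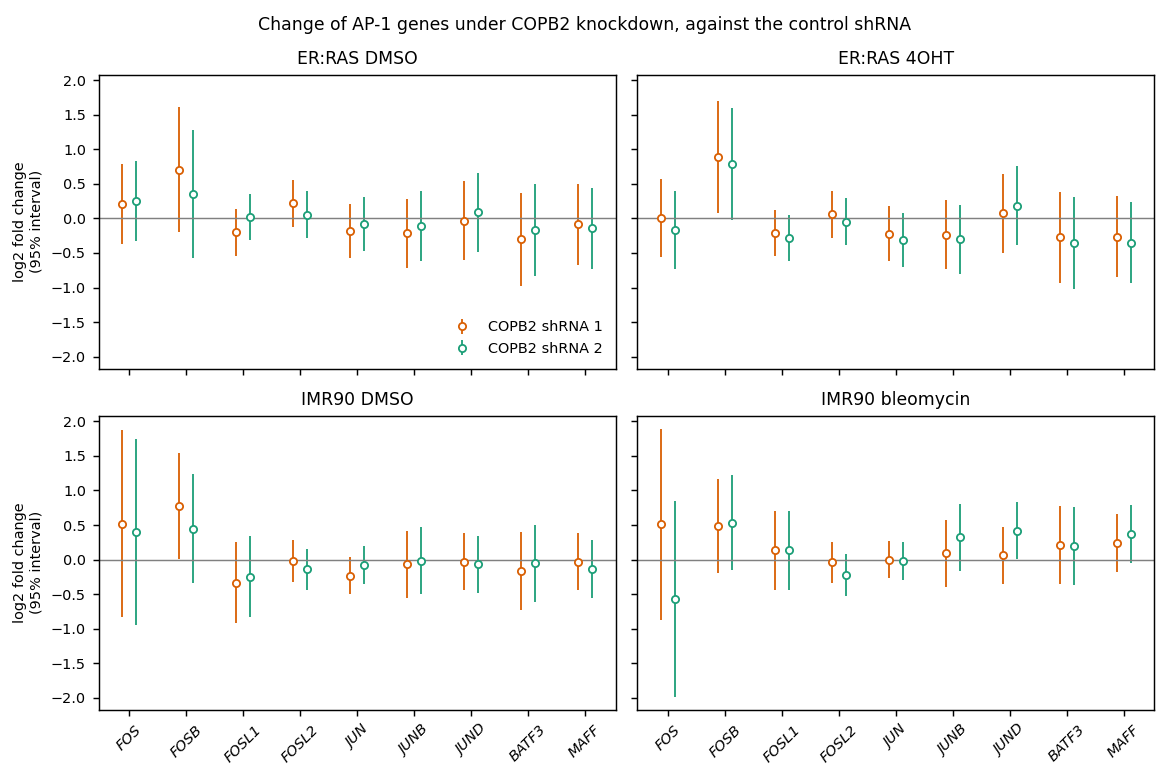
Log2 fold change (open points) with 95% interval (bars) of the 9 AP-1 genes with COPB2 shRNA 1 or 2 against the control shRNA, in 4 cell states. No point passed an adjusted p of 0.05 in edgeR, FOSB lies above 0 in all 4 panels (0.35 to 0.89), and FOS has the widest bars in IMR90 cells.

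Genes around the members were counted in lists written from general knowledge, but with earlier results of these data known. The counts are therefore a description and not a test of the lists. Of all genes tested, 35.7% were called in OIS (15.5% higher and 20.2% lower) and 31.2% after bleomycin (15.4% higher and 15.8% lower), and the counts below are to be read beside these shares. Of 16 bZIP partners tested in OIS, 3 rose and 5 fell (median log2 -0.56, all genes -0.08). After bleomycin 4 of 17 rose and 5 fell (median -0.42, all genes -0.01). BACH2, a repressor that pairs with small MAF proteins, fell in both, by 3.02 ± 0.48 (SE) in OIS (edgeR, adjusted p = 0.000143) and by 2.72 ± 0.30 after bleomycin (edgeR, adjusted p = 9.12e-07). JDP2, a JUN dimerization protein, fell by 1.15 ± 0.23 and by 1.53 ± 0.23. MAFK, a small MAF gene like MAFF, rose by 1.12 ± 0.23 and 0.93 ± 0.16. BATF2 fell by 1.47 in OIS. ATF3, a stress-induced partner of JUN, had -0.08 ± 0.22 in OIS and rose by 1.08 ± 0.20 after bleomycin, a difference between models of -1.08 ± 0.30 (edgeR, adjusted p = 0.00945), the only bZIP partner of 17 to pass that test.

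Under COPB2 knockdown ATF3 passed in OIS where the 9 members did not. ATF3 was at 16.7 ± 5.12 CPM with the control shRNA, 52.2 ± 5.01 CPM with COPB2 shRNA 1 and 58.2 ± 7.80 CPM with COPB2 shRNA 2 (SD, n = 3). The log2 fold changes of ATF3 were 1.65 ± 0.23 and 1.81 ± 0.23 (SE, edgeR, adjusted p = 0.00461 and 0.00254). ATF4, the translation-controlled factor of the integrated stress response, rose with COPB2 shRNA 2 in OIS by 1.25 ± 0.23 (edgeR, adjusted p = 0.0304) and after bleomycin by 0.86 ± 0.16 (edgeR, adjusted p = 0.0410). ATF3 also belongs to the immediate-early list, and no other gene of the bZIP, kinase, immediate-early and AP-1 target lists passed in the 8 knockdown contrasts.

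Of 24 kinases and regulators upstream of AP-1, 2 rose and 4 fell in OIS (median log2 0.19), and 1 rose and 3 fell after bleomycin (median -0.16). These 6 and 4 of 24 are smaller shares than the 35.7% and 31.2% of all genes called, a difference that was not tested. MAP2K1 (MEK1), the kinase that activates ERK, rose by 1.21 ± 0.15 in OIS (edgeR, adjusted p = 1.33e-05) and by 0.40 ± 0.11 after bleomycin (edgeR, adjusted p = 0.00565). RPS6KA1, an ERK-activated kinase, rose by 2.00 ± 0.35 in OIS, and RPS6KA2 of the same family fell by 2.05. MAPK10 (JNK3) fell by 1.46 in OIS and by 1.87 after bleomycin, from a low level of 6.26 ± 0.598 and 7.75 ± 2.13 CPM. MAPK14 (p38α) fell by 0.33 ± 0.11 after bleomycin.

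Of 22 immediate-early genes, 11 rose and 6 fell in OIS (median log2 0.64), and 8 rose and 2 fell after bleomycin (median 0.33), or 7 and 3 without replicate 4, beside 35.7% and 31.2% of all genes called in OIS and after bleomycin. The response differed between models for 15 of the 22, with 9 higher and 6 lower in OIS, beside 20.3% of all genes. IER3, an ERK-induced survival gene, rose by 4.32 ± 0.26 in OIS and by 1.57 ± 0.46 after bleomycin. TRIB1, a pseudokinase scaffold, rose by 2.72 ± 0.17 in OIS, where it differed from the bleomycin response by 2.47 ± 0.22 (edgeR, adjusted p = 6.87e-10). KLF4 fell by 3.03 ± 0.43 in OIS, and differed from the bleomycin response by -2.86 ± 0.42. NR4A3 rose in both, by 3.09 ± 0.59 and 2.63 ± 0.63. NR4A2 rose after bleomycin, by 3.29 ± 0.84, with 31.9 ± 37.3 CPM (SD, n = 4), and replicate 4 lay far above the rest. Without replicate 4 NR4A2 rose by 2.15 ± 0.45, NR4A3 by 2.33 ± 0.45 and IER3 by 1.36 ± 0.34.

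Of 26 genes known as AP-1 targets, 24 rose and 1 fell in OIS, with a median log2 change of 4.04 beside -0.08 over all genes. After bleomycin 21 of 24 tested rose and none fell, with a median of 2.96 beside -0.01 over all genes, and 21 rose without replicate 4 (median 2.54). The response differed between models for 12 of 26, 11 of these higher in OIS, beside 20.3% of all genes. MMP3, the stromelysin that can activate other metalloproteinases, was at 0.385 ± 0.135 CPM with DMSO and 1903 ± 563 CPM in OIS (SD, n = 3). MMP10 was at 0.188 ± 0.175 and 335 ± 101 CPM, and IL1B at 0.888 ± 0.0735 and 8240 ± 1811 CPM. CSF2 had at most 2 counts in a DMSO library and 473 ± 141 CPM in OIS, at least 11.51 higher on the log2 scale against a floor of 3 counts per library. MMP1, the interstitial collagenase long used as an AP-1 reporter gene, went from 11.5 ± 2.46 to 464 ± 232 CPM after bleomycin (SD, n = 4, log2 5.31 ± 0.63). Genes of this list are also regulated by other factors, and no test tied them to the members. The list was written with earlier results of these data known, so its counts are a description.

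Levels of the members were also compared with those of 15299 genes across the 12 group means of log2 CPM, as a description without a test. The 12 points share controls within each line, and 2 cell lines and 4 states lie behind them. MAFF was most like PLAUR, the urokinase receptor and itself in the target list (Pearson r = 0.999), then CTPS1 and RELT. FOSL1 was most like MAP11 (r = 0.994), CYP2S1 and MBOAT7, and FOSL2 most like HEG1 (r = 0.997), PCDHGA11 and CLCN4. JUN was most like ST3GAL2 (r = 0.994), PHLDA1 and TSC22D1, and JUNB like IMPDH1 (r = 0.996), FH and FOXQ1. FOSB was most like RAP1GAP (r = 0.989), FASN and PCDH1, BATF3 like MUS81 (r = 0.991), TNIP2 and PDLIM1, FOS like STIM2 (r = 0.975), PCGF3 and MME, and JUND like WDR18 (r = 0.968), SAE1 and CDK9. Among the members, JUN and JUNB were closest (r = 0.987), FOSB and MAFF reached 0.951, FOSL1 and MAFF 0.923, and FOSL2 and JUNB -0.967, while FOS and FOSL1 were at 0.0386.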

How the data were processed

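The data were 42 RNA sequencing libraries of IMR90 ER:RAS and IMR90 cells. The deposited table held the authors' raw read counts per gene symbol, without normalization, and every count column was assigned to a labelled library. According to the study's methods, the reads were single-end from directional poly(A) libraries and aligned with Tophat to hg19, whereas the submitters' processing notes name DRAGEN, STAR 2.7.8a, hg38 and DESeq2 1.32.0. A software list of the study also names HTSeq, without saying which table it made. Which of these aligners and builds made the deposited table, and how overlapping genes were counted, is not given in the sources used here. Depth was the total per library, 13148194 to 23597310 counts, and intervals cover counting and library spread only as the model has it. No molecular identifiers are described.

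Counts were analysed in R 4.3.3 with edgeR 4.0.16 (filterByExpr, TMM factors, robust quasi-likelihood F-test, two-sided). The 18 ER:RAS libraries (14297 genes tested), the 24 IMR90 libraries (14783 genes) and all 42 (15299 genes) formed 3 fits with group means and no covariate, and no library was dropped. All 9 members passed the filter in each fit. P-values were adjusted over every gene of a fit by Benjamini-Hochberg, with a call at 0.05. The SE of an edgeR value is its absolute log2 fold change divided by the square root of the F statistic. It is thus derived from the test and is not a separate estimate of spread. The 95% intervals are the estimate ± 1.96 SE. This multiplier is that of the normal distribution, so the intervals are somewhat narrower than the F-test would give with these few libraries. CPM used TMM factors of all 42 libraries, and CPM per kb the length of the Ensembl canonical transcript. The script was tested on simulated data. Alternatives were DESeq2 size factors, no filter, DESeq2 1.42.0 (Wald test), fits restricted to the groups of a contrast, a block for the replicate number, a minimum absolute log2 fold change of 1, leaving out each library, and shares without division by length. Leaving out replicate 4 of all IMR90 groups was added after seeing the data.

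The members, the gene lists and the tests were chosen with earlier results of these data known. All 9 members are named in each comparison. Up to 4 called genes per list were eligible to be named, by size of change among those whose higher group averaged 50 counts or more, and for each member the 3 genes most like it. EGR1, EGR2, EGR3, NR4A1, BTG2, IER5, KLF6 and the values of replicate 4 were named after their values were seen. Same-numbered libraries varied together (every pair of deviations from the group means correlated above 0.1) in the OIS contrasts with COPB2 shRNA 1 (0.47 to 0.79) and COPB2 shRNA 2 (0.53 to 0.80), in both knockdown contrasts after bleomycin (lowest 0.42) and in that of COPB2 shRNA 2 in DMSO-treated IMR90 cells (lowest 0.18). In the other contrasts they did not, with the control shRNA -0.61 to 0.59 in OIS and -0.50 to 0.58 after bleomycin. Between libraries of a group the lowest chi-square per degree of freedom was 7.15, so none was taken as a repeat deposit. Gene positions and upstream sequences came from RefSeq tables on GRCh38.p14, and no coordinates were converted.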

Additional observations from a re-analysis of the deposited data

Results flagged for a closer look

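In 54 pairings of a member with an IMR90 group of 4 libraries, the gap of the highest or lowest library was taken on log2 CPM. It was compared with the range of the group by Dixon's 95% criterion, which chance passes in about 1 pairing of 20. The pairings reuse the same 24 libraries. The criterion was passed 3 times. MAFF in bleomycin-treated IMR90 cells with COPB2 shRNA 2 was at 138 CPM in replicate 3 and 184 to 190.0 CPM in the other libraries. FOSL2 in DMSO-treated IMR90 cells with the control shRNA was at 178 CPM in replicate 1 and 133 to 136 CPM in the others. FOSB in DMSO-treated IMR90 cells with COPB2 shRNA 1 was at 1.60 CPM in replicate 1 and 0.986 to 1.06 CPM in the others.

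The test of the OIS response minus the bleomycin response set 7 members apart. The log2 differences were 2.65 for FOS, 2.21 for FOSB, -0.88 for FOSL2, 1.30 for JUN, 1.78 for JUNB, 1.42 for BATF3 and 1.59 for MAFF. Model and cell line cannot be told apart in these differences.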

How the results depend on the processing

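The number of members called per contrast stayed within 1.5 times under all alternatives, at 7 to 8 in OIS with the control shRNA (8 as reported), 7 to 8 and 6 to 8 in OIS with the COPB2 shRNAs (8 and 7), 3 to 4 in each bleomycin contrast (3), 5 to 7 in the difference between models (7), and 0 in the knockdown and interaction contrasts. With a minimum absolute log2 fold change of 1, BATF3 in OIS with the control shRNA (0.98), JUN in OIS with COPB2 shRNA 1 (0.97) and 2 (0.78) and FOSL2 in the difference between models (-0.88) lost their calls. Under the other alternatives, of 955 values (all members in the senescence contrasts and the difference between models, FOSB alone under knockdown), 892 kept their direction and side of the threshold, 25 lost a call, 10 gained one and 28 changed sign. With the replicate block BATF3 passed in OIS with COPB2 shRNA 2 (log2 0.78), and FOS in the bleomycin contrasts with COPB2 shRNA 1 (-1.35) and 2 (-1.93), where the numbers did not pair the libraries. The block changed no other call of a member. Beyond the losses given with the results, FOSL2 in the difference between models lost its call when only those libraries were fitted (edgeR, adjusted p = 0.0685). FOSL2 after bleomycin with COPB2 shRNA 1 passed without replicate 2 of that bleomycin group (log2 -0.41, edgeR, adjusted p = 0.0445). FOS after bleomycin with COPB2 shRNA 2 passed when only those libraries were fitted (-1.62).

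Signs changed in values that had not passed the test. When single libraries were left out, JUND in OIS ran from -0.61 to 0.0926 with the control shRNA, -0.22 to 0.14 with COPB2 shRNA 1 and -0.22 to 0.11 with COPB2 shRNA 2. In the bleomycin contrast with COPB2 shRNA 1, JUN ran from -0.0708 to 0.0605, JUNB from -0.41 to 0.10, JUND from -0.17 to 0.0206 and BATF3 from -0.32 to 0.15, and with COPB2 shRNA 2 BATF3 ran from -0.28 to 0.0562. FOSB under knockdown ran from -0.0933 to 0.74 with COPB2 shRNA 2 in DMSO-treated ER:RAS cells and from -0.15 to 0.69 with COPB2 shRNA 1 after bleomycin. JUND in the difference between models ran from -0.40 to 0.33. JUN after bleomycin with COPB2 shRNA 1 was also at 0.0246 with DESeq2 size factors, 0.0246 with the DESeq2 Wald test, 0.0249 when only those libraries were fitted and 0.0818 without all replicate 4 libraries. BATF3 there was at -0.00413 without a filter and at -0.33 without all replicate 4 libraries.

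Shares without division by length favour long transcripts. In DMSO-treated ER:RAS cells with the control shRNA they were 1.88% for FOS, 25% for FOSL1, 72.8% for FOSL2, 30.8% for JUN, 20.3% for JUNB and 48.9% for JUND. In OIS they were 4.26% for FOSB, 65.5% for FOSL1, 24.9% for FOSL2, 39.3% for JUN and 35.1% for JUNB. In DMSO-treated IMR90 cells they were 3.14% for FOS, 12.2% for FOSL1, 84.2% for FOSL2, 36.4% for JUN, 19.4% for JUNB and 44.1% for JUND. After bleomycin they were 41.5% for FOSL1, 56% for FOSL2, 35.8% for JUN, 19.3% for JUNB and 44.8% for JUND. FOSL1 still rose and FOSL2 still dropped in share in both models, but the lead of FOSL1 in DMSO-treated ER:RAS cells and after bleomycin was lost to FOSL2. Depth limits FOSB and BATF3 in DMSO-treated cells, which had few counts.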
